A study of Mus musculus with 6 samples.

Results

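The genes described here are 10 markers of the cells that build the small blood vessels of the brain, measured by RNA sequencing in the mouse nucleus accumbens, a ventral striatal region with dense dopamine input. They were taken by symbol from the authors' comparison of cocaine with saline, which held 35406 gene rows, and each of the 10 symbols matched 1 row. Of the 10, 8 are used as endothelial markers (Cldn5, Pecam1, Flt1, Kdr, Slco1a4, Ly6c1, Tek and Abcb1a) and 2 as markers of mural cells (Pdgfrb and Acta2). The cocaine group had received intraperitoneal cocaine at 20 mg/kg repeatedly for 1 week, and the saline group had received saline in the same way. Tissue was examined at 24 h of withdrawal. All mice were C57BL/6 males aged 11 weeks. Each group had 3 pools, each pool combined the accumbens of both hemispheres of 5 mice, and mice that shared a cage shared a treatment, so that cage and treatment cannot be told apart. The table gave a single value per gene and group, in FPKM (sequenced fragments adjusted for transcript length and library size), and no value per pool.

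Brain endothelial cells line the capillaries and form the blood-brain barrier. They are sealed to each other by tight junctions, carry transporters that admit nutrients and others that return drugs to the blood, and depend on vascular endothelial growth factor (VEGF), angiopoietin and Wnt signals. Pericytes and smooth muscle cells, together called mural cells, wrap the vessel wall and are recruited by platelet-derived growth factor (PDGF) that endothelial cells release. In tissue of mixed cells, fewer cells of a type and less RNA per cell cannot be told apart.

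Slco1a4, the gene of an organic anion transporter of the barrier, rose after cocaine, and Pecam1, the gene of an adhesion molecule at contacts between endothelial cells, fell. The other 8 genes were not called at the threshold used here, a q (the authors' adjusted p) under 0.05 with test status OK. Thus 2 of 10 were called, 1 in each direction, where 11.9% of the 23479 rows with status OK were called (6.10% higher and 5.76% lower). Among the 10431 genes with a mean FPKM within the range of these 10, 11.8% were called. Of the 10 values, 5 were higher and 5 were lower after cocaine, with a median log2 ratio of 0.00050, against 0.04 over the 14193 genes with a mean of at least 1 FPKM. The median absolute log2 ratio was 0.30 for the 10 genes and 0.20 for the 14193. At an unadjusted p under 0.05 the count was 4 of 10, against 21.2% of all rows with status OK. The authors' own marking, a q under 0.1, held 3 of the 10 and 14.6% of the rows.

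**Figure D1:**
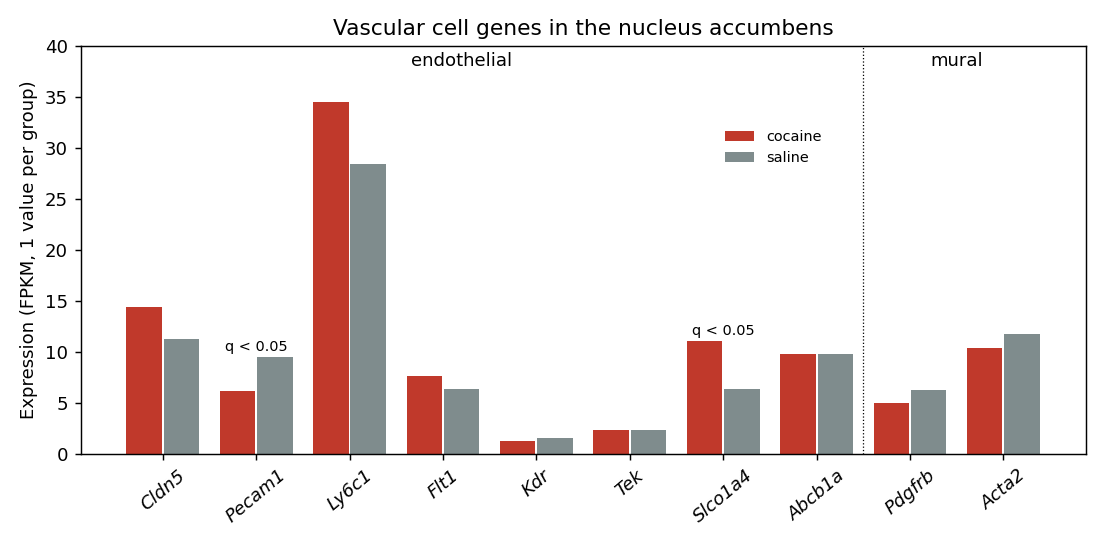
Expression in FPKM of the 8 endothelial and 2 mural genes, with cocaine to the left of saline and 1 bar per group, so that no error bar can be drawn. Slco1a4 is higher after cocaine (11.0 against 6.35 FPKM) and Pecam1 is lower (6.18 against 9.46 FPKM), and Ly6c1 has the highest level in both groups.

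All 10 genes were measured above 1 FPKM in both groups, from 1.20 to 34.5 FPKM in cocaine tissue and from 1.497 to 28.4 FPKM in saline tissue. None of the endothelial or mural markers was at 0. In cocaine tissue the levels ran Ly6c1, Cldn5, Slco1a4, Acta2, Abcb1a, Flt1, Pecam1, Pdgfrb, Tek and Kdr from highest to lowest. In saline tissue the order was Ly6c1, Acta2, Cldn5, Abcb1a, Pecam1, Flt1, Slco1a4, Pdgfrb, Tek and Kdr. Without values per pool, which neighbours in these orders differ beyond the spread between pools cannot be told. Slco1a4 had rank 3 in cocaine tissue and rank 7 in saline tissue, and Pecam1 had rank 7 in cocaine tissue and rank 5 in saline tissue. The summed level of the 8 endothelial genes was 87.1 FPKM after cocaine and 75.4 FPKM after saline, and that of the 2 mural genes was 15.4 FPKM after cocaine and 17.9 FPKM after saline. Ly6c1 alone gave 34.5 FPKM of that endothelial sum after cocaine and 28.4 FPKM after saline.

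The errors printed with a log2 ratio are standard errors implied by the authors' test (the size of the log2 ratio over that of the statistic), and 95% intervals of a fold are taken from them. They ran from 0.12 to 0.27 for the 10 genes. Whether they hold the spread between pools is not stated in the table, and the depth of the libraries is unknown.

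Among the junction and surface genes, Pecam1 (PECAM-1 or CD31; chromosome 11, 106515532 to 106611942 in the mouse build named mm9 and NCBIM37) had 6.18 FPKM in cocaine tissue and 9.46 FPKM in saline tissue in the authors' deposited table. It fell by 34.7% (log2 ratio -0.61 ± 0.20, 95% interval of the fold 0.50 to 0.85, q = 0.019). Only 3.11% of the 14193 genes had a lower log2 ratio. Pecam1 was the single one of the 10 whose locus held another row, a small RNA row listed at 0.043 FPKM in cocaine tissue and 0 in saline tissue. Its call was lost at a q under 0.01. Cldn5, the main claudin of the endothelial tight junction (chromosome 16, 18776940 to 18778353), had 14.4 FPKM in cocaine tissue and 11.2 FPKM in saline tissue in the authors' deposited table. Its log2 ratio of 0.35 ± 0.16 had an unadjusted p of 0.023 but did not pass (q = 0.137, 95% interval of the fold 1.04 to 1.58). Pecam1 and Cldn5, both found at endothelial cell contacts, thus lay on opposite sides of 0, and the level of Cldn5 over that of Pecam1 was 2.32 in cocaine tissue and 1.19 in saline tissue.

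Ly6c1, a small surface protein anchored by a lipid and abundant on mouse brain endothelium (chromosome 15, 74875447 to 74879260), had 34.5 FPKM in cocaine tissue and 28.4 FPKM in saline tissue in the authors' deposited table. Its log2 ratio was 0.28 ± 0.15 and did not pass (q = 0.268). Ly6c1 has a near-identical neighbour, Ly6c2, best known from monocytes, and the coding sequences of both in GENCODE vM21 differed at 9 of 393 bases, an identity of 97.7%. The longest stretch without a difference was 188 bases. The first 120 coding bases are shown because 6 of the 9 differences lie there, in capitals. The untranslated parts of the transcripts were not compared.
Ly6c1: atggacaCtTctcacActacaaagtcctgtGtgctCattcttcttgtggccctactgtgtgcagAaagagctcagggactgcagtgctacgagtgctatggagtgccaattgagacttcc
Ly6c2: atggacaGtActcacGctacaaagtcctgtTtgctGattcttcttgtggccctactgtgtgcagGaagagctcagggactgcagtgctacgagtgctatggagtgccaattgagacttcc

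Ly6c2 stood at 9.88 FPKM after cocaine and 9.95 FPKM after saline in the authors' deposited table (q = 1.10, log2 ratio -0.01 ± 0.21), so the values of both genes are uncertain to the extent that fragments were divided between them. The related Ly6a (Sca-1), also carried by endothelium, was at 20.3 FPKM after cocaine and 17.1 FPKM after saline in the authors' deposited table (q = 0.465, log2 ratio 0.25 ± 0.18). None of the Ly6 genes named passed.

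Both VEGF receptors were measured. Flt1 (VEGFR1; chromosome 5, 148373180 to 148537587), which binds VEGF-A tightly and in a soluble form acts as a trap for it, had 7.64 FPKM in cocaine tissue and 6.38 FPKM in saline tissue in the authors' deposited table. Kdr (VEGFR2; chromosome 5, 76328852 to 76374483), the main signalling receptor for VEGF-A in endothelium, had 1.20 FPKM in cocaine tissue and 1.497 FPKM in saline tissue in the authors' deposited table. Their log2 ratios were 0.26 ± 0.16 for Flt1 (q = 0.383) and -0.32 ± 0.20 for Kdr (q = 0.385), and neither passed. The intervals of the fold reached from 0.96 to 1.49 for Flt1 and from 0.61 to 1.05 for Kdr. The level of Flt1 over that of Kdr was 6.35 in cocaine tissue and 4.26 in saline tissue, and this difference was not tested. Tek (Tie2; chromosome 4, 94405980 to 94541667), the receptor for angiopoietins that keeps vessels quiescent, was at 2.31 FPKM in cocaine tissue and 2.33 FPKM in saline tissue in the authors' deposited table. Its log2 ratio was -0.01 ± 0.22, and the interval of the fold, 0.73 to 1.35, does not show that the groups were alike.

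Of the barrier transporters, Slco1a4 (Oatp1a4; chromosome 6, 141753961 to 141804720), which moves organic anions, bile acids and some drugs across the endothelium, had 11.0 FPKM in cocaine tissue and 6.35 FPKM in saline tissue in the authors' deposited table. It rose by 73.8% (log2 ratio 0.80 ± 0.19, 95% interval of the fold 1.34 to 2.25, q = 0.00051), and 97.8% of the 14193 genes had a lower log2 ratio. Its row was alone in its locus. Abcb1a, a P-glycoprotein gene whose product pumps many drugs back into the blood (chromosome 5, 8660077 to 8748575), had 9.80 FPKM in cocaine tissue and 9.73 FPKM in saline tissue in the authors' deposited table. Its log2 ratio of 0.01 ± 0.27 had the largest implied error of the 10, and the interval of the fold ran from 0.70 to 1.45. The level of Slco1a4 over that of Abcb1a was 1.13 in cocaine tissue and 0.65 in saline tissue, a difference that was not tested.

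Both transporters have close relatives. The coding sequence of Slco1a4 was 89.4% identical to that of Slco1a5, 86.7% to Slco1a1 and 85.0% to Slco1a6, and these 3 genes stood between 0.079 and 0.165 FPKM in cocaine tissue and between 0.098 and 0.158 FPKM in saline tissue in the authors' deposited table. How fragments were divided among these relatives is not known from the table. Slco1c1, a thyroid hormone transporter of the barrier with a coding identity of 60.4% to Slco1a4, had 10.9 FPKM after cocaine and 8.80 FPKM after saline in the authors' deposited table. Its log2 ratio of 0.31 ± 0.14 did not pass (q = 0.171). The second P-glycoprotein gene, Abcb1b, 88.1% identical to Abcb1a in its coding sequence, was low at 1.44 FPKM after cocaine and 1.31 FPKM after saline and was not called (q = 0.884) in the authors' deposited table.

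The mural genes both had lower values after cocaine, and neither was called. Pdgfrb, the receptor by which pericytes respond to PDGF-B (chromosome 18), had 4.99 FPKM in cocaine tissue and 6.20 FPKM in saline tissue in the authors' deposited table. Its log2 ratio of -0.31 ± 0.12 had an unadjusted p of 0.011 and a q of 0.079, past the authors' own marking at 0.1 but not past 0.05. Acta2, the smooth muscle actin of arterioles and some pericytes (chromosome 19, 34315580 to 34329826), had 10.4 FPKM in cocaine tissue and 11.7 FPKM in saline tissue in the authors' deposited table. Its log2 ratio was -0.17 ± 0.15 (q = 0.584).

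**Figure D2:**
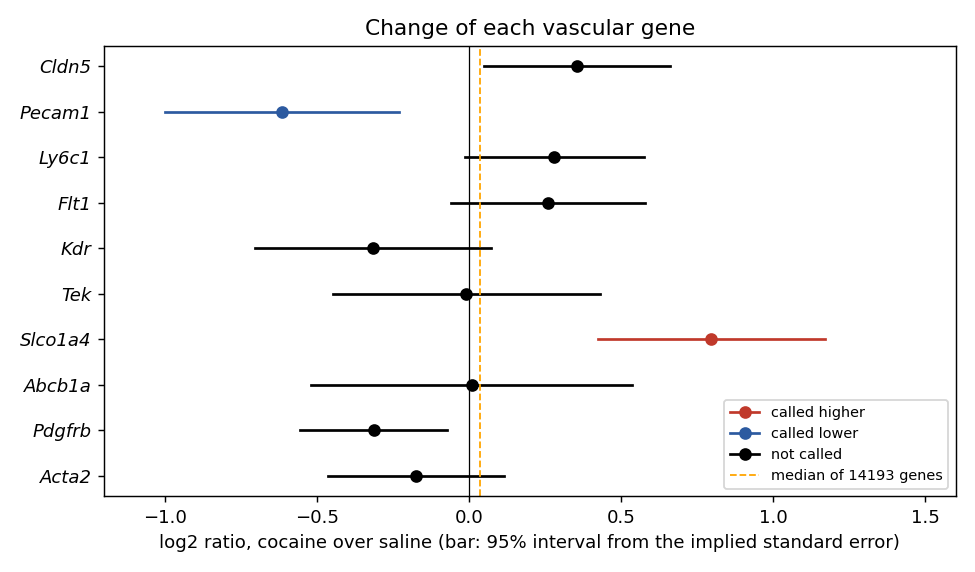
Log2 ratio of cocaine over saline for each gene (points) with the 95% interval from the implied standard error (bars) and the median of the 14193 genes (dashed line). The intervals of Slco1a4, Cldn5, Pecam1 and Pdgfrb do not reach 0, and of these Slco1a4 and Pecam1 were called.

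Promoter sequences from RefSeq (build GRCm38.p6) were matched by symbol for 8 of the 10 genes. Pecam1, the called gene that fell, and Pdgfrb had no entry. The 250 bases before the start site are shown for 4 of them: for Slco1a4, the gene that rose, for Cldn5, which had the next highest log2 ratio, and for the VEGF receptors Flt1 and Kdr, whose ratios lay on opposite sides of 0. Capitals mark GGAA, the core that ETS factors bind, on either strand (read as TTCC where it lies on the other strand). ETS factors such as ERG and FLI1 are known regulators of endothelial genes.
Slco1a4: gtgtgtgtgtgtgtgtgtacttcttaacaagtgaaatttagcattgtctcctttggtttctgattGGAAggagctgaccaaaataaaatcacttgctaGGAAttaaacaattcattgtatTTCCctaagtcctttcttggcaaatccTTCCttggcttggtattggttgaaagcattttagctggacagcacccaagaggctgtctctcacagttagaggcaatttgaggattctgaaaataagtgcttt
Cldn5: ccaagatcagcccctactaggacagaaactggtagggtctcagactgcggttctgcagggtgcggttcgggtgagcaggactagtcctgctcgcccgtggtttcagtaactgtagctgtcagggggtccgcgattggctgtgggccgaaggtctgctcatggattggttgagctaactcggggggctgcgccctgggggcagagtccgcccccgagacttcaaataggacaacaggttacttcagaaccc
Flt1: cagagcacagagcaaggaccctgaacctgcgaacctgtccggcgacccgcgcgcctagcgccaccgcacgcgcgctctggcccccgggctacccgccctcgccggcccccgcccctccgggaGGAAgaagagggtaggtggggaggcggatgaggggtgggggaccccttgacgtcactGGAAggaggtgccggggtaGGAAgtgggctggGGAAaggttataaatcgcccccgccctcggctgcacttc
Kdr: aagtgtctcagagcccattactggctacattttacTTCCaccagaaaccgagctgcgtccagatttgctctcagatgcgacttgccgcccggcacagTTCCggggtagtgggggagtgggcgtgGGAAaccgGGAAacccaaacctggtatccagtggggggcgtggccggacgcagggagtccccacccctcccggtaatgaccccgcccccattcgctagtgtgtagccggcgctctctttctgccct

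In GRCm38.p6 these windows are chr6:141856221-141856470 on the minus strand for Slco1a4, chr16:18776597-18776846 on the plus strand for Cldn5, chr5:147726012-147726261 on the minus strand for Flt1 and chr5:75978456-75978705 on the minus strand for Kdr. The windows of Slco1a4, Flt1 and Kdr each held 4 GGAA matches and that of Cldn5 held 0. Of 32851 promoter windows of the same length, 93.4% held at least 1 match, with a median of 3, and 33.4% held 4 or more. GGGCGG, the core bound by Sp1, was found 3 times in Flt1, 2 times in Kdr, 1 time in Cldn5 and not in Slco1a4, and 32.7% of all windows held it. TATAAA was found 1 time in Flt1 and in none of the other 3 windows, and 12.4% of all windows held it. Both strands were searched for each motif. Of the other genes matched, Abcb1a held 5 GGAA matches, Acta2 held 3 and Tek held 2, and the windows of the 2 start sites of Ly6c1 held 4 and 6. The part of these matches in the log2 ratios was not tested.

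The ligands and partners of these receptors were read from lists of known pathway genes. Over 10 vascular lists with 124 genes, 117 had a row of their own and 95 of these had a mean of at least 1 FPKM. Of the 95, 10 were called (10.5%), 5 higher and 5 lower, where 14.6% of the 14193 genes were called (7.46% higher and 7.18% lower). Their median log2 ratio was 0.01, beside 0.04 for all 14193. Of the 10 called, Nrarp, Mfsd2a, Vwf, Vtn and Cspg4 were alone in their locus, and the other 5 shared a locus with further rows.

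Of the VEGF list, 4 of 8 genes passed the 1 FPKM minimum and 0 were called, with a median log2 ratio of 0.01. Vegfa, the ligand of Flt1 and Kdr, was at 56.4 FPKM after cocaine and 56.0 FPKM after saline in the authors' deposited table (q = 1.09, log2 ratio 0.01 ± 0.09). Vegfb, a ligand of Flt1 but not of Kdr, was at 46.6 FPKM after cocaine and 43.3 FPKM after saline in the authors' deposited table (q = 0.652). No gene of this list had an unadjusted p under 0.05 in the comparison. Of the angiopoietin list, 2 of 4 genes passed the minimum and 1 was called: Ptprb (VE-PTP), the phosphatase that holds Tek inactive, fell to 2.07 FPKM after cocaine, against 2.73 FPKM after saline, in the authors' deposited table (q = 0.034, log2 ratio -0.40 ± 0.14). Tie1, the partner receptor of Tek, had a log2 ratio of -0.06 ± 0.17 and was not called, and the antagonist ligand Angpt2 was below 1 FPKM in both groups (q = 0.981).

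Of the PDGF list, 4 of 5 genes passed the minimum, with a median log2 ratio of 0.37, and 1 was called. Pdgfa, a ligand made by neurons and astrocytes among other cells and acting on Pdgfra, rose to 19.5 FPKM after cocaine, against 14.8 FPKM after saline, in the authors' deposited table (q = 0.047, log2 ratio 0.40 ± 0.14). Pdgfb, the endothelial ligand of Pdgfrb, had 4.76 FPKM after cocaine and 3.74 FPKM after saline in the authors' deposited table. Its log2 ratio of 0.35 ± 0.16 lay on the other side of 0 from that of its receptor and did not pass (q = 0.158). Pdgfra was not called (log2 ratio -0.07 ± 0.11).

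Of the Notch list, 9 of 10 genes passed the minimum, with a median log2 ratio of 0.16, and 1 was called. Nrarp, a feedback inhibitor that Notch induces, rose to 11.3 FPKM after cocaine, against 8.12 FPKM after saline, in the authors' deposited table (q = 0.0076, log2 ratio 0.48 ± 0.14). The abundant Hey1 (0.17 ± 0.12) and Notch1 (0.19 ± 0.21) were not called on the log2 scale of the authors' deposited table. Of the 12 Wnt genes, all 12 passed the minimum and had a median of 0.08, and Ctnnb1, the gene of beta-catenin, was the single one called. It fell to 414.0 FPKM after cocaine, against 462.3 FPKM after saline, in the authors' deposited table (q = 0.032, log2 ratio -0.16 ± 0.05), a gene expressed by most cells of the brain. Wnt7a, a ligand that induces barrier genes (0.35 ± 0.20), and the receptor partner Tspan12 (0.18 ± 0.28) were not called on the log2 scale of the authors' deposited table.

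**Figure D3:**
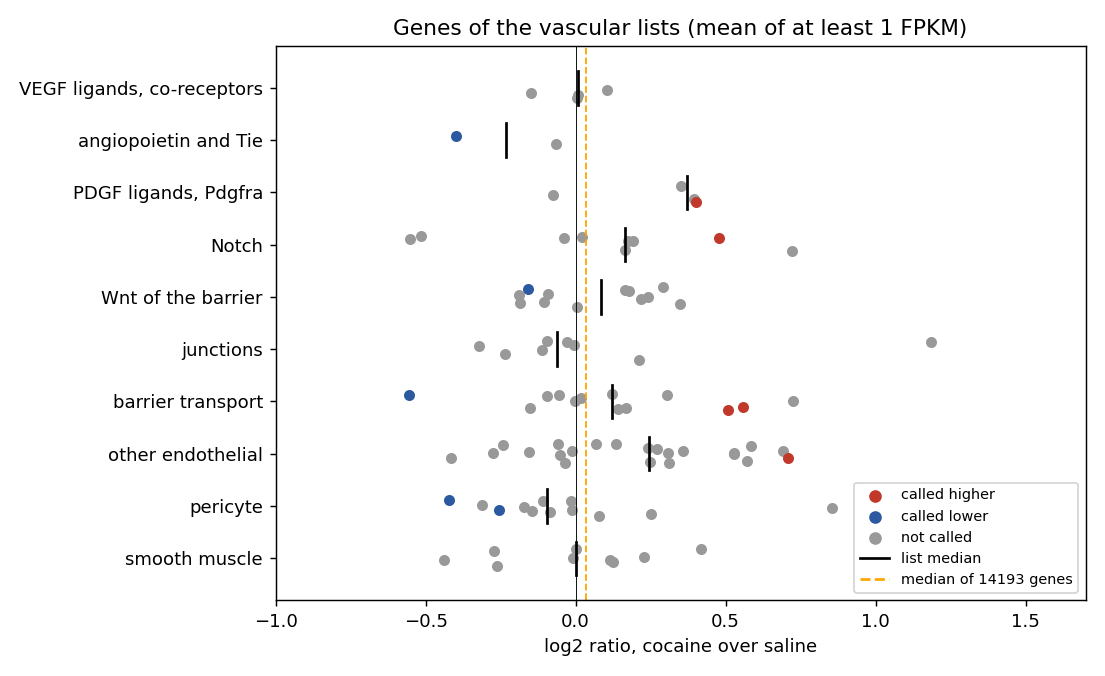
Log2 ratio of cocaine over saline for the 95 genes of the 10 vascular lists with a mean of at least 1 FPKM (points), with each list's median (black line) and the median of the 14193 genes (dashed line). Red points were called higher (5 genes), blue points were called lower (5 genes) and grey points were not called.

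Of 13 barrier transport genes with a row, all 13 passed the minimum, with a median log2 ratio of 0.12, and 2 were called higher and 1 lower, beside 14.6% called among the 14193 genes. Slc2a1 (GLUT1), the glucose transporter of the barrier, which astrocytes also express, rose to 43.3 FPKM after cocaine, against 29.4 FPKM after saline, in the authors' deposited table (q = 4.0e-06, log2 ratio 0.56 ± 0.11). Mfsd2a, the lysolipid transporter that limits vesicle transport through endothelium, rose to 18.2 FPKM after cocaine, against 12.8 FPKM after saline, in the authors' deposited table (0.51 ± 0.14, q = 0.0047). The amino acid transporter subunit Slc3a2 (0.12) and the transferrin receptor Tfrc (0.17) were not called on the log2 scale of the authors' deposited table.

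Of 10 junction genes 8 passed the minimum and 0 were called, with a median log2 ratio of -0.06. Cldn12 (-0.11 ± 0.13) and Tjp1 (ZO-1; -0.03 ± 0.14) were the most abundant by the authors' deposited table. Ocln, a tight junction gene chosen here after its values were seen, had 3.79 FPKM after cocaine and 1.67 FPKM after saline in the authors' deposited table. Its log2 ratio of 1.19 ± 0.45 did not pass (q = 0.062), but it passed when the authors' p was adjusted over rows with a mean of at least 1 FPKM (Benjamini-Hochberg adjusted p = 0.0496), which gives the junction list 1 call.

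Of 27 further endothelial markers with a row, 22 passed the minimum, and 14 of the 22 had a higher value after cocaine, with a median log2 ratio of 0.25. Of the 22, 1 was called: Vwf, the clotting factor stored by endothelium, rose to 11.0 FPKM after cocaine, against 6.71 FPKM after saline, in the authors' deposited table (q = 0.0068, log2 ratio 0.71 ± 0.20). Pltp (-0.24 ± 0.09, q = 0.071) and S1pr1 (-0.15 ± 0.11, q = 0.496) were the most abundant of the list. Neither was called at the threshold used here, but by its q in the authors' deposited table Pltp passed the authors' own marking. Robo4 of the same list, named here after its values were seen, passed that marking in the other direction (0.57 ± 0.22, q = 0.069). Pltp and S1pr1 are expressed by other brain cells too. The junction, transport and other endothelial lists together held 43 genes with a mean of at least 1 FPKM. Of the 43, 24 had a higher and 19 a lower value after cocaine, with a median log2 ratio of 0.12. The share called was 9.30%, beside 14.6% of the 14193 genes.

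Of 16 pericyte genes 12 passed the minimum, with a median log2 ratio of -0.10, and 9 of the 12 had a lower value after cocaine. Of the 12, 2 were called, both lower, beside 14.6% called among the 14193 genes (7.18% lower). Vtn, a secreted adhesion protein, had 42.3 FPKM after cocaine and 50.5 FPKM after saline (-0.25 ± 0.09, q = 0.047) in the authors' deposited table. Cspg4 (NG2), which oligodendrocyte precursors also express, had 2.43 FPKM after cocaine and 3.26 FPKM after saline in the authors' deposited table (-0.42 ± 0.13, q = 0.018). Rgs5, a defining pericyte gene, was at 16.9 FPKM after cocaine and 16.0 FPKM after saline and was not called (0.08 ± 0.12, q = 0.869), and neither was Mcam (-0.14 ± 0.16), by the authors' deposited table. Of 13 smooth muscle genes 9 passed the minimum and 0 were called, with a median of 0.00254. Its abundant members Tpm1 (0.12 ± 0.05, q = 0.176) and Myl9 (-0.26 ± 0.14, q = 0.246) lay on opposite sides of 0 in the authors' deposited table. Over the pericyte and smooth muscle lists together, 9.52% of 21 genes were called.

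Of 51 genes in 7 lists of other cells with a mean of at least 1 FPKM, 9 were called (17.6%), 3 higher and 6 lower, beside 14.6% of the 14193 genes. The part of these cells in the results above was not tested. The red blood cell list (5 genes, none at 0) summed to 294.9 FPKM after cocaine and 257.3 FPKM after saline, with 4 of 5 values higher. Hba-a2 was not called (0.08 ± 0.13), and Alas2 fell to 0.82 FPKM after cocaine, against 2.05 FPKM after saline, in the authors' deposited table (q = 0.035). The choroid plexus list (13 genes with a row, none at 0) summed to 50.2 FPKM after cocaine and 144.4 FPKM after saline, with Ttr at 9.46 FPKM after cocaine and 93.4 FPKM after saline in the authors' deposited table. Its members Slc4a5 (q = 0.023) and F5 (q = 0.017), both under 1 FPKM, fell as well in the authors' deposited table. Of its 4 genes with a mean of at least 1 FPKM, 3 had a lower value after cocaine and 1 a higher value. The higher one was Clic6, at 5.49 FPKM after cocaine and 4.22 FPKM after saline (q = 0.316). Kcne2, under 1 FPKM, also had a higher value (0.34 ± 0.82) and was not called. The fibroblast list (12 genes, none at 0) summed to 25.7 FPKM after cocaine and 29.1 FPKM after saline, with 0 called and its most abundant gene Igf2 at -0.30 ± 0.16 in the authors' deposited table.

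The 10 astrocyte genes had a median log2 ratio of -0.10 and summed to 1719 FPKM after cocaine and 1908 FPKM after saline. Of these the glutamate transporter gene Slc1a2 (-0.72 ± 0.05) was called lower and the most abundant gene, Aldoc (-0.02 ± 0.07), was not called by the authors' deposited table. The 11 microglia genes had a median of 0.12 and summed to 220.7 FPKM after cocaine and 217.2 FPKM after saline. Tmem119 (0.78 ± 0.20) was called higher and C1qb (-0.27 ± 0.12) was not called by the authors' deposited table. The 8 oligodendrocyte genes had a median of -0.03, with Mal (0.38 ± 0.10) called higher and Cnp (-0.27 ± 0.08) and Mbp (-0.08 ± 0.01) called lower in the authors' deposited table. The 7 neuron genes with a row had a median of 0.18 and 0 were called, and Snap25 stood at 585.1 FPKM after cocaine and 559.6 FPKM after saline in the authors' deposited table. None of the lists of other cells held a gene at 0.

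Across all genes, the log2 ratio moved with transcript length. Of the 14193 genes, 88.1% had a length in GENCODE vM21, and split by length into 10 groups of equal size their median log2 ratio ran from 0.20 in the group with the shortest to -0.19 in the group with the longest transcripts. The share called was 11.1% in the group with the shortest transcripts and 33.0% in the group with the longest, which holds Flt1. It was 18% in the group of Kdr and Pdgfrb. The 2 called genes were of middle length, 3823 nt for Slco1a4 and 3441 nt for Pecam1, where the medians of their length groups were 0.02 and 0.03. Flt1 (6895 nt) had a log2 ratio of 0.26 in a length group with a median of -0.19. Cldn5 (1416 nt) and Ly6c1 (844 nt) lay at 0.35 and 0.28 in length groups with medians of 0.10 and 0.14. Kdr (5924 nt) and Pdgfrb (5423 nt) lay at -0.32 and -0.31 in a length group with a median of -0.07. The part of length in these values was not tested.

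**Figure D4:**
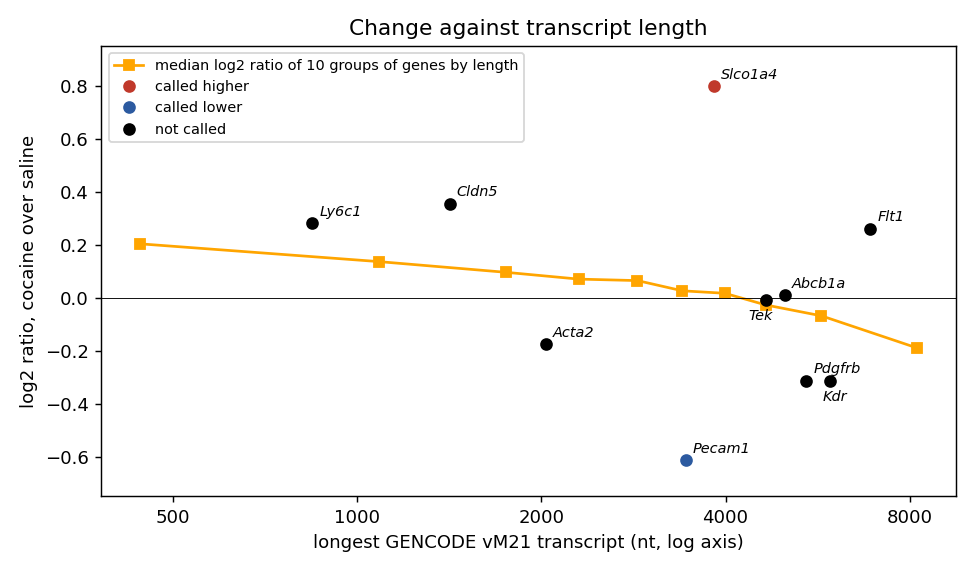
Log2 ratio of cocaine over saline for the 10 genes (round points) against the length of their longest transcript, with the median log2 ratio of each of 10 groups of all genes by length, drawn at the group's median length (squares). The medians run from 0.20 to -0.19 from short to long, and Slco1a4 (0.80) and Pecam1 (-0.61) lie farthest from them.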

How the data were processed

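Per the submitters' processing notes, CASAVA, TopHat and Cuffdiff were used on the mouse builds mm9 and NCBIM37; versions, parameters, annotation and depth: not given in the sources used here. The authors' deposited table, which per the file headers has Cuffdiff's column layout, gave 1 FPKM value per gene and group; the unit is taken from that layout. The p-value deposited by the authors was used as it stands. The q-value and test statistic, deposited by the authors and handled as a score because q exceeds 1 in places, are those of their saline and cocaine comparison per the file headers. The sign of the statistic, opposite to the log2 ratio in 100% of status OK rows with unequal values above 0, was not used, and direction was taken from the group name given for each column. The test took the place of one over pools, which the table does not allow. p-values measure what the authors' test took in.

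Log2 ratios have no pseudocount. Starts are 1-based: 21 of 21 mitochondrial genes matched the reference after adding 1. Named list genes were up to 4 called and the 2 most abundant uncalled per vascular list, and for other cells the most abundant and up to 3 called. Some genes that met this rule are counted but are not reported here by name. The members and lists were chosen with earlier results of these data known. List genes sharing a row with another gene (Cgn, Eng, Egfl7, Ramp2, Cyyr1, Rasip1, Prlr) were given no value, and Slc7a5 and Tubb3 were not analysed here. Coding sequences, from GENCODE vM21, were aligned with Biopython 1.88, taking for each gene pair the transcripts with the most identical bases. Python 3.11.15 and pandas 2.3.3 were used. The Benjamini-Hochberg adjustment and the calls made from it were tested on simulated log2 ratios, and the other steps were not. Alternatives were other q thresholds, recomputed adjustment, 1.5-fold, a pseudocount, centring, summed rows, 5 FPKM and rows alone in their locus.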

Additional observations from a re-analysis of the deposited data

How the results depend on the processing

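No paired analysis was possible because the table holds no values per pool, and leaving out pools could not be run for the same reason. The call of Slco1a4 held at a q under 0.01, under both recomputed adjustments, with at least 1.5-fold and for rows alone in their locus. The other alternatives could not undo it. A q under 0.1 is looser, and the pseudocount, centring and summed rows left q as it was. The minimum of 5 FPKM was not applied to the 10 genes. Pecam1 was not called at a q under 0.01, and as its locus holds another row it drops out where rows must be alone in their locus. The count of 2 called genes of 10 became 1 in both cases, and 3, with Pdgfrb, at a q under 0.1. Of the vascular lists, the 10 calls became 5 at a q under 0.01, 1 with at least 1.5-fold and 5 for rows alone in their locus, and rose to 14 at a q under 0.1 and to 11, with Ocln, under adjustment over rows of at least 1 FPKM. The 9 calls of the other cell lists became 6 at a q under 0.01, 4 with at least 1.5-fold, 3 for rows alone in their locus and 11 at a q under 0.1. Centring on the median of all genes took the same 0.04 from every log2 ratio, so the median of the 10 genes moved by that amount, to -0.04. This shift is less than their median implied error of 0.18 and turned the sign of no called value. As centring left q unchanged, it could not test a call. Depth is unknown, so the precision of low genes such as Kdr rests on the implied errors alone.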
